A study of Homo sapiens with 12 samples.

Results

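The abundant long non-coding RNAs (lncRNAs) of a pair of ovarian cancer cell lines are described here across 4 groups of 3 RNA-seq libraries. A gene was taken when its annotated type was lncRNA, it had a symbol, and its level in CPM, the share of the library total scaled to 1e6 counts, averaged at least 10 over the 12 libraries. 139 of 14971 named lncRNA genes met the rule, out of 46350 named genes in all, and 8804 of the lncRNA genes had a count in any library. Members were thus chosen by their mean level over all 12 libraries, so the levels themselves are a description. The last genes inside were TP53TG1 (mean 10.2 CPM), TMEM99 (10.1 CPM) and TTC28-AS1 (10.04 CPM), and the first outside were MIR4458HG (9.96 CPM), CD27-AS1 (9.93 CPM) and NUTM2B-AS1 (9.87 CPM).

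The untreated SKOV3 group was the human ovarian adenocarcinoma line SKOV3, which is sensitive to the platinum drug cisplatin. SKOV3/DDP was a cisplatin-resistant line that the study describes as derived from SKOV3. SKOV3_PAE and SKOV3/DDP_PAE were the same lines given paeonol (PAE), a phenolic compound of peony root bark, at a dose and time that the labels do not give. Each group held 3 libraries of one cell line, and nothing in the labels says that these came from separate cultures, so p-values measure the spread between these libraries, which may be technical. The comparisons asked how the resistant line differed from the sensitive one and how PAE changed each of them.

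lncRNAs are transcripts longer than most small RNAs that carry no long open reading frame. Some, such as MALAT1 and NEAT1, stay in the nucleus and bind splicing factors or build a nuclear body. Others are spliced hosts whose introns release small nucleolar RNAs (snoRNAs) or whose transcripts hold microRNA precursors, and many are read from the strand opposite a protein-coding gene or from the other side of its promoter. By symbol and a list of known hosts, 27 of the 139 were antisense genes, 26 carried LINC symbols and 20 were snoRNA hosts. Another 20 carried LOC symbols, 8 were miRNA hosts, 8 were divergent transcripts and 30 fell in none of these classes. Annotated snoRNAs lay within 22 members, which were the 20 listed hosts with THAP9-AS1 and LINC00888, both classed here by symbol. CYTOR and LINC-PINT, among the 8 miRNA hosts, hold no annotated miRNA. One X-linked member is counted throughout but its values are not given.

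The libraries held 14572701 to 18240553 counts for named genes, so that 1 group of 3 libraries could show a level down to about 0.06 CPM (0.0566 to 0.0650 CPM for 3 counts, counting error only). The 139 genes took 0.329 to 0.392% of counts in untreated SKOV3 and 0.585 to 0.734% in the other 9 libraries. Untreated SKOV3 stood apart in other ways that touch every comparison with it. Its libraries gave 2773 to 2855 lncRNA genes with a count against 4294 to 4995 elsewhere, and their trimmed-mean (TMM) scaling factors were 0.644 to 0.675 against 0.975 to 1.23. In untreated SKOV3 a gene's deviation from its mean over all libraries rose with its GC content (Spearman's rho 0.729 to 0.750 over 11656 genes). In the other 9 libraries it fell with GC content (rho -0.601 to -0.386). Deviations from a shared mean offset each other, so the second trend is in part set by the first. Among the untreated SKOV3/DDP libraries, replicate 2 differed from replicates 1 and 3 by a chi-square per degree of freedom of 101 and 92.6, against 16.6 between replicates 1 and 3. Other groups were uneven too. Replicate 3 of SKOV3/DDP_PAE gave 69.1 and 88.15, against 22.0 between replicates 1 and 2. Replicate 2 of untreated SKOV3 gave 60.4 and 39.5, against 20.7 between replicates 1 and 3, and the SKOV3_PAE pairs gave 65.7 to 71.4. The 10 ovarian epithelial markers summed to at least 2430 CPM in every library, but they did not move together: of 9 tested, 5 were higher and 4 lower in untreated SKOV3/DDP. The keratins KRT8 (means of 3307 and 5273 CPM in untreated SKOV3 and SKOV3/DDP) and KRT18 (1496 and 4186 CPM) were high in both lines, whereas KRT7 averaged 3603 and 1.22 CPM, the Müllerian lineage factor PAX8 29.7 and 4.12 CPM, MUC16, which encodes CA125, 2.08 and 0.389 CPM, and WT1 0 and 0.0408 CPM. The intestinal epithelium markers (CDX1, CDX2, VIL1, CDH17, LGR5, GPA33) were at 0 counts in untreated SKOV3 and summed to 499 to 552 CPM in SKOV3/DDP and 159 to 238 CPM in SKOV3/DDP_PAE. In such bulk samples, fewer cells of a kind and less RNA per cell cannot be told apart. The part of these differences in the lncRNA results was not tested beyond the alternatives given with each result.

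All levels below are TMM-normalised CPM, and all adjusted p-values are Benjamini-Hochberg values over all genes tested, from the quasi-likelihood test of edgeR. Because a short and a long transcript of equal molar level give different counts, the order of levels within a group is given per kilobase of exon. In untreated SKOV3 the highest were PICSAR (383 ± 66.9 CPM per kb, SD, n = 3) and SNHG9 (373 ± 101 CPM per kb), which did not differ beyond their spread, followed by SNHG19 at 197 ± 85.2 and SNHG5 at 165 ± 82.5 CPM per kb. In SKOV3_PAE the highest mean was that of LOC105372338 (302 ± 125 CPM per kb), followed by SNHG5 (177 ± 43.9 CPM per kb), and their ranges overlapped. In SKOV3/DDP the order began with GAS5 (205 ± 89.2 CPM per kb), NORAD (153 ± 20.3 CPM per kb) and SNHG29 (119 ± 31.2 CPM per kb), whose ranges overlapped. SKOV3/DDP_PAE began with GAS5 (263 ± 51.0 CPM per kb) and ZFAS1 (189 ± 34.6 CPM per kb), which also overlapped. None of the 3 highest genes of untreated SKOV3 was among the 8 highest of SKOV3/DDP. Only 45 of the 139 averaged at least 10 CPM in each of the 4 groups, 36 did so in 3 groups, 40 in 2 and 18 in 1 (9 in SKOV3, 4 in SKOV3_PAE, 4 in SKOV3/DDP and 1 in SKOV3/DDP_PAE). TP53TG1, HAR1A, MAN1B1-DT and SNHG9 met the rule through untreated SKOV3 alone, and LOC105369370 and LOC105377016 through untreated SKOV3/DDP alone. For such members the rule favoured a fall from that group, so the fall is a description.

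All 139 passed the filter on low counts in each main fit. Some alternatives tested fewer. With 10 counts required in every library 107 were tested between the untreated lines and 105 with PAE in SKOV3, and 116 had a GC value. Between untreated SKOV3/DDP and untreated SKOV3, 115 of the 139 (82.7%) were called, 54 higher and 61 lower in SKOV3/DDP, against 84.7% of all genes tested. PAE in SKOV3 called 104 (74.8%), 47 higher and 57 lower, against a background of 75.3%. PAE in SKOV3/DDP called 60 (43.2%), 33 higher and 27 lower, where the background was 26.4% of all genes tested and 29.6% of genes of any type with a mean of at least 10 CPM. The PAE effect differed between the lines for 89 (64.0%) against 62.9% of all genes tested and 78.1% of genes with a mean of at least 10 CPM. Between the PAE-treated lines 87 (62.6%) were called, 48 higher and 39 lower in SKOV3/DDP_PAE, against a background of 54.5%. With a log2 fold change over 1 in size required as well, 106 passed between the untreated lines (78.2% of all genes tested), 95 with PAE in SKOV3 (70.2%), 42 with PAE in SKOV3/DDP (18.1%), 85 for the difference between the lines (60.9%) and 76 between the treated lines (42.7%). The 3 libraries of one group lay clear of the other 3 for 120 between the untreated lines (86.5% of all genes tested), 106 with PAE in SKOV3 (77.4%), 72 with PAE in SKOV3/DDP (45.1%) and 96 between the treated lines (61.2%). Genes of any type with a mean of at least 10 CPM were called at 87.7% between the untreated lines, 87.4% with PAE in SKOV3 and 54.2% between the treated lines. The median log2 fold change of the 139 was -0.22 between the untreated lines (0.42 over all genes tested), -0.01 with PAE in SKOV3 (0.48 over all genes) and 0.17 with PAE in SKOV3/DDP (0 over all genes). When library totals replaced TMM factors, the median of all genes moved by 0.74, 0.87 and 0.16 in these 3 comparisons, and the split of calls became 65 higher and 51 lower, 69 higher and 36 lower, and 41 higher and 19 lower.

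Apart from JPX, the nuclear-retained and regulatory lncRNAs listed were several-fold lower in untreated SKOV3 than in the other groups. Of the 7 in this list, 6 were higher in SKOV3/DDP than in SKOV3 and the same 6 rose with PAE in SKOV3, while edgeR called 0 with PAE in SKOV3/DDP (background, higher: 46.1%, 42.6% and 11.8%). In that last comparison 0 of the 7 had an unadjusted p under 0.05 and DESeq2 also called 0, but TUG1 was called higher when the 6 SKOV3/DDP libraries were fitted alone. NEAT1, the scaffold of the nuclear bodies called paraspeckles, stood at 22.6, 21.5 and 22.9 CPM in SKOV3, 461, 1084 and 1159 CPM in SKOV3_PAE, 286, 466 and 550 CPM in SKOV3/DDP and 276, 440 and 115 CPM in SKOV3/DDP_PAE. Every library of the last 3 groups lay above all of untreated SKOV3, and the untreated and treated SKOV3/DDP libraries overlapped. The log2 fold change of NEAT1 was 5.34 ± 0.50 (SE) with PAE in SKOV3 (adjusted p = 1.4e-07) and -0.65 ± 0.41 with PAE in SKOV3/DDP (adjusted p = 0.26), and the difference between these effects was -5.98 ± 0.63 (adjusted p = 1.4e-06). MALAT1, which gathers in nuclear speckles beside splicing factors, gave 0.177, 0 and 0.762 CPM in SKOV3, 4.47, 12.6 and 7.94 CPM in SKOV3_PAE, 17.1, 17.6 and 29.8 CPM in SKOV3/DDP and 14.3, 28.1 and 7.47 CPM in SKOV3/DDP_PAE. Its level was therefore modest in these poly(A)-selected libraries, and the 3 SKOV3 libraries were all below the other 9.

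KCNQ1OT1, an imprinted antisense transcript that silences its neighbours in cis, rose from 0.461 ± 0.144 CPM in SKOV3 to 9.08 ± 5.24 CPM with PAE and was at 17.1 ± 5.00 CPM in SKOV3/DDP. Its whole length lies opposite KCNQ1 (11.5 CPM), whose reads this library type cannot tell from it and which fell with PAE in SKOV3 (log2 fold change -2.18). TUG1, a nuclear lncRNA linked to chromatin regulation, rose from 15.5 ± 10.9 CPM in SKOV3 to 241 ± 35.2 CPM in SKOV3_PAE (log2 fold change 3.96 ± 0.40, adjusted p = 3.5e-07) and was at 231 ± 19.7 CPM in SKOV3/DDP. OIP5-AS1, a conserved cytoplasmic lncRNA with a microRNA site, went from 40.9 ± 9.57 to 160 ± 18.8 CPM with PAE in SKOV3, but its log2 fold change turned from 1.97 to -1.39 once the trend with GC content and length was removed. JPX, from the X inactivation centre, was the exception and was lower in SKOV3/DDP (8.33 ± 1.24 CPM) than in SKOV3 (17.5 ± 3.70 CPM), with a log2 fold change of -1.13 ± 0.26 (adjusted p = 0.0029) that was -0.39 (adjusted p = 0.17) with library totals. With the GC and length trend removed, 3 of the 7 rose and 2 fell with PAE in SKOV3, and MALAT1 lost its call there (adjusted p = 0.096). Under the same correction NEAT1 and KCNQ1OT1 kept theirs.

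**Figure D1:**
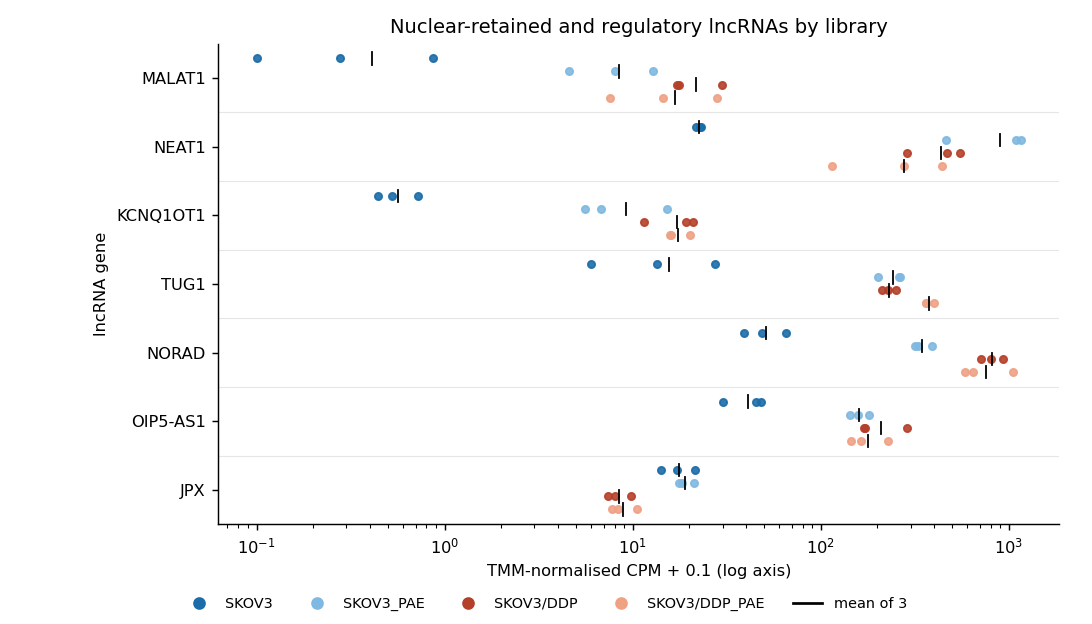
Levels of 7 nuclear-retained and regulatory lncRNAs in TMM-normalised CPM plus 0.1 on a log axis, 1 point for each of the 12 libraries and a bar at the mean of 3. The untreated SKOV3 points of 6 genes sit left of the other 3 groups, while JPX is higher in both SKOV3 groups than in both SKOV3/DDP groups.

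NORAD, a cytoplasmic lncRNA that sequesters RNA-binding proteins of the Pumilio family, gave 64.9, 39.2 and 48.6 CPM in SKOV3, 392, 315 and 330 CPM in SKOV3_PAE, 928, 712 and 805 CPM in SKOV3/DDP and 647, 587 and 1045 CPM in SKOV3/DDP_PAE. The 3 untreated SKOV3 libraries lay below all others, and SKOV3/DDP lay above SKOV3_PAE in every library. The gene has 1 exon on the minus strand at chr20:36045618-36050960 (GRCh38). The Pumilio response element, searched as TGTANATA on the transcript strand only because proteins read it in RNA, occurred 15 times in the NORAD transcript of GENCODE (2.81 per kb). Of 116 members with a transcript in that annotation 26 (22.4%) held it at least once, and the next highest number was 9, in KCNQ1OT1, whose transcript is far longer. The following 3 sites, shown in transcript direction with 11 flanking bases, carry the element in capitals.

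NORAD, chr20:36049803-36049832: cctcactactgTGTATATAgttgacaatgc
NORAD, chr20:36049702-36049731: aaatcacatttTGTAAATAcctttttgtta
NORAD, chr20:36047971-36048000: caaccctactgTGTATATAgcggacaaact

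The mRNA of PUM2, a Pumilio protein, was low in the same group. It averaged 7.79 ± 3.86 CPM in SKOV3, 129 ± 29.8 CPM in SKOV3_PAE, 131 ± 10.4 CPM in SKOV3/DDP and 237 ± 33.4 CPM in SKOV3/DDP_PAE. PUM2 was called higher between the untreated lines and with PAE in SKOV3. With the GC and length trend removed, the NORAD effect of PAE in SKOV3 fell to 0.15 on the log2 scale (adjusted p = 0.54).

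Genes that encode protein partners of these RNAs were counted from lists, beside shares over all genes tested of 46.1% higher and 38.5% lower between the untreated lines, 42.6% and 32.7% with PAE in SKOV3, and 11.8% and 14.7% with PAE in SKOV3/DDP. Of 15 nuclear speckle genes, 13 were higher in SKOV3/DDP, 14 rose with PAE in SKOV3, 1 rose with PAE in SKOV3/DDP and none fell in these comparisons. Their sum was 674 to 1115 CPM in untreated SKOV3 and at least 2478 CPM elsewhere. Paraspeckle proteins were mixed: of 33 tested between the untreated lines 14 were higher and 11 lower, of 34 tested with PAE in SKOV3 18 rose and 11 fell, and in SKOV3/DDP 4 rose and 3 fell. PSPC1, a core paraspeckle protein, rose with PAE in SKOV3 by 2.21 ± 0.25 (log2, adjusted p = 9.1e-07). NONO, which binds NEAT1, changed by 0.57 ± 0.23 (log2, adjusted p = 0.033).

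The 20 snoRNA hosts carry snoRNAs in their introns, and their spliced exons mostly encode no known protein. Several hosts of this family are known to begin transcription at a C within a pyrimidine run, the terminal oligopyrimidine start that they share with ribosomal protein genes. A run of a C at the annotated start followed by at least 4 bases that are C or T was found in 5 of the 17 hosts with a start in RefSeq (29.4%), against 5.14% of 27305 genes in the same table and 0 of 19 members with LINC symbols. The starts below (RefSeq, GRCh38.p14) show 15 bases before and 30 from the annotated start, with the run in capitals, and the absence of a run at an annotated start says only that these letters are not there. SNHG1 and SNHG7, with shorter runs, are shown for contrast.

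SNHG5, chr6:85678704-85678748, minus strand: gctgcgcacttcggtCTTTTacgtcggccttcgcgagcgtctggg
ZFAS1, chr20:49278627-49278671, plus strand: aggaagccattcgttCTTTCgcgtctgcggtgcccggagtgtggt
SNHG19, chr16:2155329-2155373, minus strand: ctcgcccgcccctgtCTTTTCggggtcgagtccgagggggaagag
SNHG12, chr1:28581844-28581888, minus strand: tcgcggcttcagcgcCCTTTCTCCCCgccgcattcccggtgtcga
SNHG18, chr5:9546185-9546229, plus strand: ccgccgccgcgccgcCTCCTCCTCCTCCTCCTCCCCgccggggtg
SNHG1, chr11:62855856-62855900, minus strand: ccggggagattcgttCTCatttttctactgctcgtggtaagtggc
SNHG7, chr9:136728155-136728199, minus strand: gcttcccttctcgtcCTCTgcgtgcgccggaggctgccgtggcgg

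The hosts did not move as one group. Between the untreated lines 6 of 20 were higher and 9 lower in SKOV3/DDP (background 46.1% higher and 38.5% lower). PAE in SKOV3 raised 3 and lowered 12 (background 42.6% and 32.7%), a split that became 6 higher and 5 lower with library totals and 4 higher and 4 lower with the GC and length trend removed. PAE in SKOV3/DDP raised 7 and lowered 1 (background 11.8% and 14.7%), and 9 were higher with library totals and 10 with the trend removed. The PAE effect was higher in SKOV3/DDP than in SKOV3 for 12 of the 20 and lower for 3 (background 25.5% and 37.4%), which became 8 and 0 with the GC and length trend removed and 9 and 3 with library totals. The largest such difference was that of SNHG9, the shortest host.

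SNHG9, next to a ribosomal protein gene on chromosome 16, gave 88.2, 62.8 and 110 CPM in SKOV3, 4.005, 2.99 and 2.10 CPM in SKOV3_PAE, 0.346, 0.252 and 0.367 CPM in SKOV3/DDP and 8.33, 7.32 and 4.56 CPM in SKOV3/DDP_PAE. Its level therefore fell in every SKOV3 library with PAE and rose in every SKOV3/DDP library with PAE, and no pair of groups compared overlapped. The log2 fold change was -4.84 ± 0.34 in SKOV3 (adjusted p = 1.6e-08) and 4.36 ± 0.40 in SKOV3/DDP (adjusted p = 2.6e-05). SNHG9 met the rule through untreated SKOV3 alone, so its fall from that group is a description. The difference between the lines includes that fall. SNHG7 gave 438, 518 and 363 CPM in SKOV3, 72.6, 85.7 and 42.4 CPM in SKOV3_PAE, 13.2, 26.5 and 14.7 CPM in SKOV3/DDP and 69.1, 56.6 and 44.9 CPM in SKOV3/DDP_PAE. Here too the groups were ordered SKOV3 above SKOV3_PAE above SKOV3/DDP, with PAE raising the last by 1.65 ± 0.31 on the log2 scale (adjusted p = 0.0019). SNHG9 and SNHG7 had the highest GC contents of the hosts (66.5% and 65.9%), and with the trend removed their PAE effects in SKOV3 were -0.36 (adjusted p = 0.37) and -0.12 (adjusted p = 0.71).

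SNHG1 moved the other way in SKOV3. It gave 2.57, 8.60 and 9.82 CPM in SKOV3, 262, 83.2 and 76.2 CPM in SKOV3_PAE, 44.5, 97.4 and 44.1 CPM in SKOV3/DDP and 176, 149 and 142 CPM in SKOV3/DDP_PAE. All treated libraries of each line exceeded all untreated ones, with log2 fold changes of 4.32 ± 0.56 (adjusted p = 4.4e-06) in SKOV3 and 1.33 ± 0.49 (adjusted p = 0.057) in SKOV3/DDP. The value in SKOV3/DDP was 1.81 (adjusted p = 0.022) without replicate 2 of untreated SKOV3/DDP. GAS5, which holds 11 annotated snoRNA rows and is known for building up when translation or growth stops, gave 21.6, 72.5 and 55.8 CPM in SKOV3, 97.1, 60.7 and 75.2 CPM in SKOV3_PAE, 119, 260 and 143 CPM in SKOV3/DDP and 258, 237 and 175 CPM in SKOV3/DDP_PAE. GAS5 was higher in SKOV3/DDP than in SKOV3 (log2 fold change 1.73 ± 0.46, adjusted p = 0.0072), and its treated and untreated libraries overlapped in both lines.

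The other hosts raised by PAE in SKOV3/DDP were SNHG30 (5.60 ± 0.784 to 15.7 ± 4.58 CPM), SNHG12 (13.4 ± 7.83 to 33.4 ± 6.76 CPM), SNHG17 (26.0 ± 8.98 to 51.3 ± 11.6 CPM), DANCR (41.0 ± 5.18 to 79.4 ± 12.4 CPM) and SNHG11 (8.67 ± 2.62 to 14.9 ± 0.234 CPM). DANCR, named for its block of cell differentiation, fell in SKOV3 from 26.4 ± 3.48 to 13.1 ± 4.42 CPM, a log2 fold change that became 0.35 (adjusted p = 0.20) with the trend removed. Its effects in the lines differed by 1.97 ± 0.34 on the log2 scale (adjusted p = 0.00014), or by 0.75 (adjusted p = 0.060) with the trend removed. SNHG18 was the host that fell with PAE in SKOV3/DDP, from 22.2, 27.7 and 28.2 CPM to 14.9, 12.7 and 12.8 CPM (log2 fold change -0.95 ± 0.27, adjusted p = 0.023). It was at 0 counts in all 6 SKOV3 libraries. The calls of SNHG11, SNHG12 and SNHG17 in SKOV3/DDP were each lost without replicate 1 (adjusted p = 0.14, 0.13 and 0.052) or replicate 3 of untreated SKOV3/DDP, and those of SNHG11 and SNHG12 also without replicate 1 or 2 of SKOV3/DDP_PAE. The call of SNHG18 was lost with any 1 of the 6 SKOV3/DDP libraries left out (adjusted p 0.055 to 0.10).

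The counts of hosts called with PAE in SKOV3/DDP varied with single libraries. Replicate 2 of untreated SKOV3/DDP had the highest value of its group for 14 of the 20 hosts (70.0%), against 39.3% of all genes tested, and the hosts summed to 1505 CPM there against 899 and 943 CPM in replicates 1 and 3. Without it 11 hosts rose with PAE in SKOV3/DDP, without replicate 1 or replicate 3 of untreated SKOV3/DDP 4 did, and without replicate 1 or replicate 2 of SKOV3/DDP_PAE 5 did. Within SKOV3/DDP_PAE, replicate 1 was the highest for 14 of the 20 hosts and replicate 3 the lowest for 15. Among the untreated SKOV3 libraries, replicate 1 was the lowest for 17 of the 20 hosts, against 32.5% of all genes tested. The core proteins that package snoRNAs were mixed against the same background shares: 5 of 11 were higher and 3 lower in SKOV3/DDP, 6 rose and 5 fell with PAE in SKOV3, and 1 rose with PAE in SKOV3/DDP. Of 18 nonsense-mediated decay genes, whose pathway degrades many host transcripts, 7 were higher and 7 lower between the untreated lines, 8 rose and 4 fell with PAE in SKOV3, and 5 rose (27.8%, background 11.8%) and none fell with PAE in SKOV3/DDP.

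**Figure D2:**
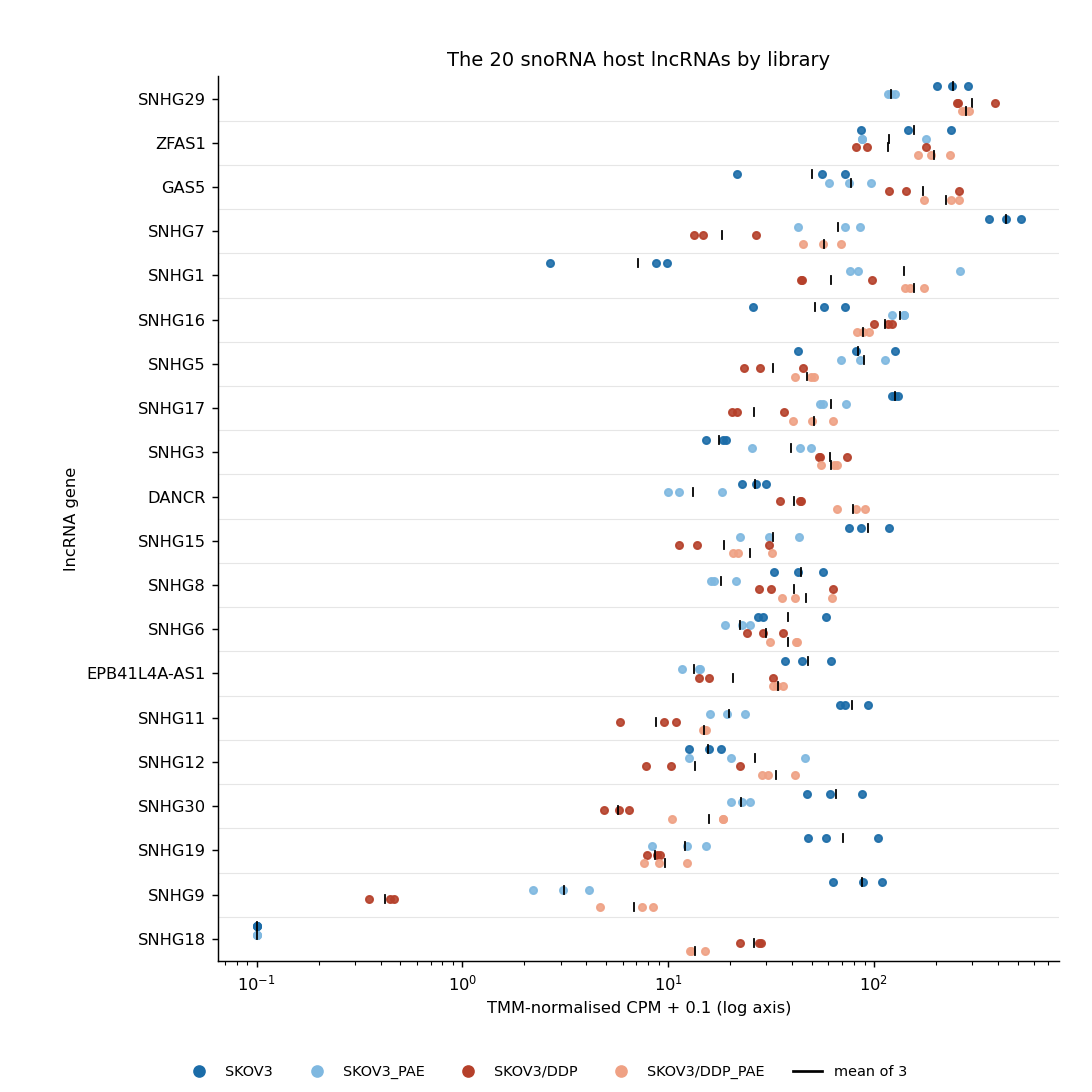
Levels of the 20 snoRNA host lncRNAs in TMM-normalised CPM plus 0.1 on a log axis, ordered by mean level, with 1 point for each library and a bar at the mean of 3. SNHG7, SNHG11, SNHG30 and SNHG9 are highest in untreated SKOV3 and lowest in untreated SKOV3/DDP, and SNHG18 is at 0 in both SKOV3 groups.

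H19, an imprinted lncRNA of the fetal growth locus next to IGF2 and the precursor of miR-675, was abundant in SKOV3/DDP and low in SKOV3. It gave 3.10, 1.36 and 1.10 CPM in SKOV3, 2.73, 2.38 and 0.263 CPM in SKOV3_PAE, 224, 232 and 147 CPM in SKOV3/DDP and 48.6, 81.2 and 59.3 CPM in SKOV3/DDP_PAE. All SKOV3/DDP libraries exceeded all SKOV3 libraries, and PAE lowered H19 in SKOV3/DDP by 1.68 ± 0.46 on the log2 scale (adjusted p = 0.016), a call lost without replicate 1 or replicate 3 of SKOV3/DDP_PAE (adjusted p = 0.074 and 0.053). Its whole span at chr11:1995176-2001466 on the minus strand lies within MRPL23 on the other strand, which had a mean of 4.14 CPM and was lower in SKOV3/DDP than in SKOV3 (log2 fold change -2.62).

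Some of the mature miRNAs that lie within MIR100HG, MIRLET7BHG, MIR34AHG and H19, whose levels changed with PAE in SKOV3/DDP, are shown first as examples. Other mature miRNAs of these hosts are not shown. In the following RefSeq sequences (GRCh38.p14) the seed, bases 2 to 8, is in capitals. The let-7 miRNAs shown for MIR100HG and MIRLET7BHG share 1 seed, and the other 4 seeds shown differ.

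let-7a-5p in MIR100HG, chr11:122146568-122146589: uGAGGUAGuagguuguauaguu
let-7b-5p in MIRLET7BHG, chr22:46113691-46113712: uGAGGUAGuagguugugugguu
miR-100-5p in MIR100HG, chr11:122152275-122152296: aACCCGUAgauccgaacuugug
miR-125b-5p in MIR100HG, chr11:122099809-122099830: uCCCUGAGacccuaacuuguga
miR-34a-5p in MIR34AHG, chr1:9151735-9151756: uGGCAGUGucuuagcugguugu
miR-675-5p in H19, chr11:1996800-1996822: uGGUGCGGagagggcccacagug

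The miRNAs themselves were not measured, since poly(A) selection captures the host and not a mature miRNA. Of 7 listed miRNA hosts, 5 fell and 1 rose with PAE in SKOV3/DDP (background 14.7% lower and 11.8% higher), while in SKOV3 2 rose and 2 fell (background 42.6% higher and 32.7% lower). MIR1915HG, a host by symbol, was outside this list. With it, 5 of 8 fell and 1 rose in SKOV3/DDP, and 2 rose and 3 fell in SKOV3. CYTOR and LINC-PINT were listed by name and hold no miRNA row in the files, so of the 5 listed hosts that do (MIR100HG, MIRLET7BHG, MIR4435-2HG, MIR34AHG and PVT1) 3 fell and 1 rose in SKOV3/DDP. MIR100HG, the host of miR-100, let-7a-2 and miR-125b-1, gave 1.77, 1.62 and 2.37 CPM in SKOV3, 86.8, 95.3 and 48.8 CPM in SKOV3_PAE, 32.0, 39.2 and 48.1 CPM in SKOV3/DDP and 7.35, 13.9 and 5.06 CPM in SKOV3/DDP_PAE. PAE thus moved every library up in SKOV3 (log2 fold change 5.32 ± 0.42, adjusted p = 3.2e-08) and every library down in SKOV3/DDP (-2.18 ± 0.35, adjusted p = 0.00064). The difference of -7.50 ± 0.54 (adjusted p = 1.4e-07) was the most negative among the 139. MIR34AHG, the host of the p53-induced miR-34a, rose with PAE in SKOV3/DDP from 8.24, 6.31 and 10.5 CPM to 23.8, 37.2 and 14.1 CPM (1.59 ± 0.43, adjusted p = 0.014). The MIR34AHG call was lost without replicate 2 of SKOV3/DDP_PAE (adjusted p = 0.074), and in SKOV3 its change was 1.01 ± 0.47 (adjusted p = 0.061).

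MIRLET7BHG fell in both lines, from 17.8 ± 5.48 to 8.52 ± 4.30 CPM in SKOV3 and from 26.0 ± 6.42 to 9.63 ± 1.32 CPM in SKOV3/DDP (-1.43 ± 0.34, adjusted p = 0.0075), and the SKOV3 change turned to 0.96 with the GC and length trend removed. The SKOV3 call of MIRLET7BHG was lost without replicate 2 of SKOV3 or replicate 3 of SKOV3_PAE (adjusted p = 0.059 and 0.054). CYTOR and MIR4435-2HG are paralogues from duplicated segments of chromosome 2, so that reads could be shared between them and their separate values are uncertain. CYTOR fell by 1.02 on the log2 scale in both lines (SE 0.24 in each) and MIR4435-2HG by 0.79 in SKOV3/DDP (adjusted p = 0.014), a call lost without replicate 1 of SKOV3/DDP or replicate 2 or 3 of SKOV3/DDP_PAE (adjusted p 0.052 to 0.053). LINC-PINT, a p53-induced transcript, rose with PAE in SKOV3 from 6.45 ± 2.44 to 37.3 ± 4.88 CPM and fell in SKOV3/DDP from 36.2 ± 10.6 to 18.5 ± 6.51 CPM (-0.97 ± 0.32, adjusted p = 0.039). The SKOV3 change of LINC-PINT was -0.12 with the trend removed, and its SKOV3/DDP call was lost there too (adjusted p = 0.061), as it was without replicate 1 or 3 of either SKOV3/DDP group (adjusted p 0.052 to 0.20).

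UCA1, named for its discovery in urothelial cancer, rose with PAE in SKOV3 and fell in SKOV3/DDP. It gave 97.4, 54.6 and 68.6 CPM in SKOV3, 322, 396 and 179 CPM in SKOV3_PAE, 147, 101 and 188 CPM in SKOV3/DDP and 50.7, 59.4 and 30.6 CPM in SKOV3/DDP_PAE. Treated and untreated libraries did not overlap in either line, with log2 fold changes of 2.02 ± 0.34 (adjusted p = 7.0e-05) and -1.63 ± 0.34 (adjusted p = 0.0034). LINC00673 fell in both lines, from 11.5 ± 1.17 to 4.44 ± 2.54 CPM in SKOV3 and from 23.4 ± 1.44 to 6.56 ± 2.83 CPM in SKOV3/DDP. Of the 17 tumour- or stress-linked lncRNAs listed, 4 were abundant enough to be members, and 3 of these, UCA1, LINC00673 and LINC-PINT, fell with PAE in SKOV3/DDP (background 14.7% lower). LINC-PINT is counted in the list above too, and 2 of the 4 fell under the replicate block or with library totals and 1 of 3 with the GC and length trend removed.

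A group of 16 members, chosen after their values were seen, was near the count floor in 1 of the lines and abundant in the other. In SKOV3/DDP these were AFAP1-AS1, KLRK1-AS1, LINC02331, LINC02617, LOC105377016 and SNHG18. AFAP1-AS1, an antisense transcript at AFAP1, gave 353, 369 and 345 CPM in SKOV3/DDP and 479, 354 and 569 CPM with PAE, and 5 counts in all 6 SKOV3 libraries together. The ratio between the untreated lines rested on 17613 counts against 1 (12382, 95% counting interval 2222 to 489090). AFAP1 itself, on the other strand, changed by 0.04 on the log2 scale between the lines. LINC02617 gave 57.8, 62.5 and 61.0 CPM in SKOV3/DDP, 23.1, 19.3 and 17.4 CPM with PAE, and 0 in every SKOV3 library, at least 701-fold higher in untreated SKOV3/DDP against a floor of 3 counts over the group. SNHG18 was at least 302-fold higher by the same floor.

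Of those abundant in SKOV3/DDP, PAE lowered LINC02331, KLRK1-AS1, LOC105377016, LINC02617 and SNHG18 in that line (background 14.7% lower). These genes were picked for a high level in SKOV3/DDP, so their falls from it are a description. LINC02331 went from 63.8 ± 3.31 to 9.11 ± 1.78 CPM (log2 fold change -2.81 ± 0.28, adjusted p = 6.6e-05), KLRK1-AS1 from 81.6 ± 34.4 to 17.9 ± 2.60 CPM (-2.19 ± 0.44, adjusted p = 0.0026) and LOC105377016 from 46.3 ± 23.04 to 6.15 ± 2.94 CPM (-2.91 ± 0.52, adjusted p = 0.0013). The last lies within TGFBR2 on the same strand, which changed by -1.18 on the same contrast, so their reads could be shared. On the opposite strand, LOC105370504 (mean 4.95 CPM) overlaps LINC02331, and KLRC4-KLRK1 (2.36 CPM) overlaps KLRK1-AS1. LOC105370504 and KLRC4-KLRK1 changed by -3.23 and -1.73 on the log2 scale, and the kit does not mark strand. LINC02617 fell by 1.60 (adjusted p = 0.00085), whereas AFAP1-AS1 changed by 0.40 ± 0.23 (adjusted p = 0.22). The summed intestinal markers fell over the same contrast, from 499 to 552 CPM to 159 to 238 CPM, and their part in these falls was not tested.

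The SKOV3 side held PICSAR, LOC105372338, LOC375196, LOC107985728, HEIH, LINC02593, TP53TG1, LINC02693, FENDRR and LINC02582. PICSAR, known from squamous cell carcinoma, gave 266, 335 and 240 CPM in SKOV3, 43.0, 50.5 and 35.2 CPM in SKOV3_PAE and 1 count over the 6 SKOV3/DDP libraries. TP53TG1, a p53 target, gave 43.3, 62.7 and 41.0 CPM in SKOV3, 6.15, 7.41 and 7.67 CPM in SKOV3_PAE and 0 in every SKOV3/DDP library, at least 810-fold higher in untreated SKOV3. LOC375196 was at least 1399-fold and LINC02693 at least 748-fold higher by the same floor. The PAE falls in SKOV3 were -2.71 ± 0.25 for PICSAR and -2.79 ± 0.29 for TP53TG1, and the PICSAR value became 0.77 with the GC and length trend removed. FENDRR, a lateral mesoderm regulator, went the other way with PAE in SKOV3, from 43.4 ± 7.73 to 137 ± 25.3 CPM (1.66 ± 0.35, adjusted p = 0.00048), a value of 0.22 (adjusted p = 0.58) with the trend removed. HEIH and LOC107985728 each overlap a gene on the other strand that was also lower in SKOV3/DDP (LINC00847 by -7.87 and SAMD11 by -10.96 on the log2 scale).

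**Figure D3:**
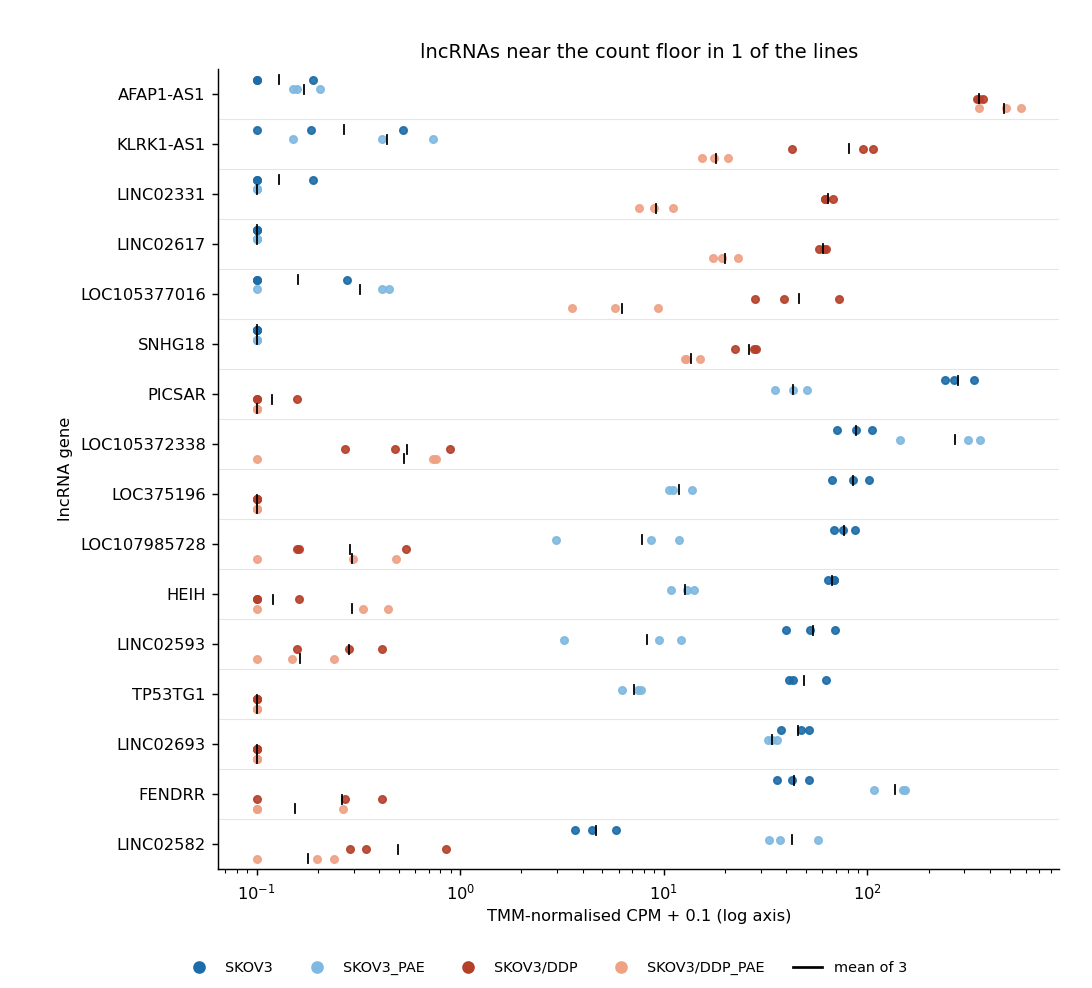
Levels of the 16 members near the count floor in 1 of the lines, in TMM-normalised CPM plus 0.1 on a log axis, with 1 point for each library and a bar at the mean of 3. The upper 6 genes are abundant in SKOV3/DDP and the lower 10 in SKOV3, and points at the left edge are libraries with 0 counts.

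Across all 139, the directions of the PAE effect in the lines were counted side by side. 12 rose in both lines, 9 fell in both, 7 rose in SKOV3 and fell in SKOV3/DDP, and 13 fell in SKOV3 and rose in SKOV3/DDP. As shares of the 139 these were 8.63%, 6.47%, 5.04% and 9.35%, against 5.80%, 6.82%, 4.10% and 3.41% of the 17133 genes tested. All 20 of the last 2 sets also passed the test of the difference between the lines. Called effects of opposite sign in the same fit make this nearly certain, so it adds no further evidence. A further 28 rose and 35 fell in SKOV3 alone by the call, 8 rose and 11 fell in SKOV3/DDP alone, and 16 were called in neither. LOC105372860 and LOC107984316 were among those raised in both lines. LOC107984316 went from 0.781 ± 0.4501 to 14.4 ± 1.55 CPM in SKOV3 and from 7.43, 14.8 and 5.99 to 53.7, 52.99 and 57.3 CPM in SKOV3/DDP (2.54 ± 0.34, adjusted p = 0.00021). HAR1A, a transcript of a human accelerated region, fell in both, from 50.1 ± 7.76 to 4.85 ± 1.39 CPM and from 8.14 ± 0.658 to 3.91 ± 0.669 CPM.

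LOC105369370, on chromosome 11, fell furthest with PAE in SKOV3/DDP, from 33.9, 28.6 and 35.6 CPM to 2.65, 2.96 and 3.46 CPM (log2 fold change -3.43 ± 0.26, adjusted p = 1.8e-05), and rose in SKOV3 from 0.775 ± 0.085 to 2.65 ± 0.180 CPM. LINC02086 followed the same pattern, from 40.2 ± 5.11 to 8.29 ± 0.957 CPM in SKOV3/DDP and from 0.722 ± 0.418 to 2.82 ± 0.874 CPM in SKOV3. Both genes were members by their level in untreated SKOV3/DDP, so their falls from that group are descriptions. DGCR5, from the DiGeorge region of chromosome 22, moved oppositely, from 36.0 ± 2.89 to 9.76 ± 1.81 CPM in SKOV3 and from 3.74, 3.22 and 2.94 to 19.1, 25.3 and 6.04 CPM in SKOV3/DDP (2.35 ± 0.40, adjusted p = 0.00090). The largest rises in SKOV3 were those of LINC00641 (6.50 ± 0.82), LINC01004 (6.21 ± 0.72) and THAP9-AS1 (5.44 ± 0.48), which started from means of 0.229, 0.313 and 0.689 CPM. LINC01004 lies opposite KMT2E, and THAP9-AS1 overlaps THAP9 on the opposite strand by 233 bases. KMT2E and THAP9 rose on the same contrast by 3.35 and 4.39. SEC31A (76.3 CPM), which overlaps THAP9-AS1 by 7118 bases on the same strand, rose by 1.72.

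**Figure D4:**
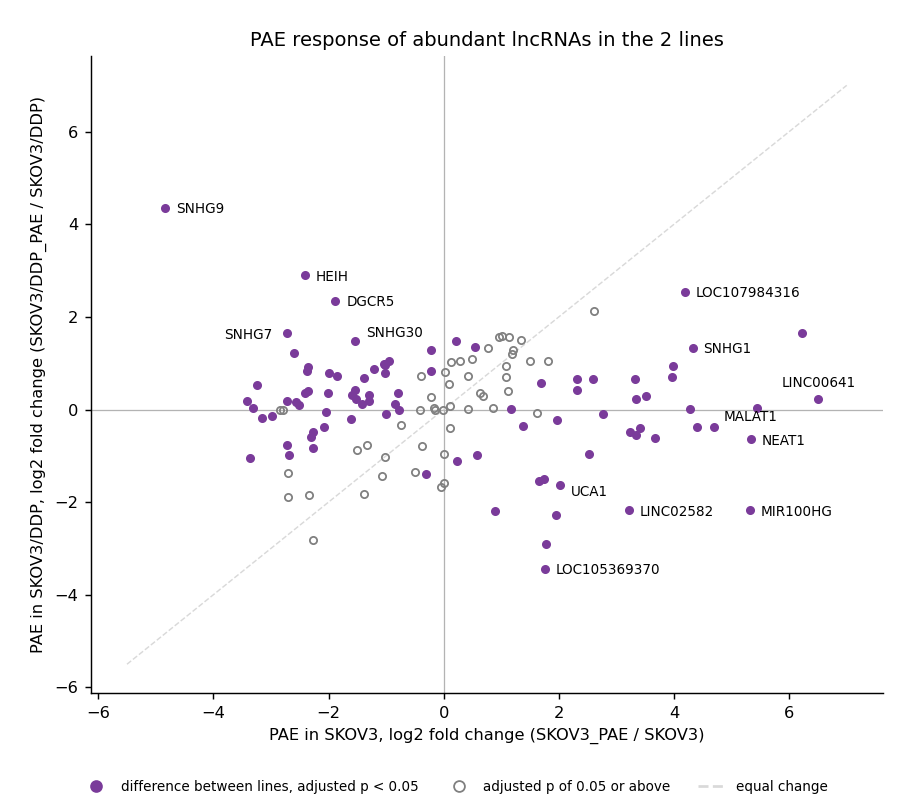
Log2 fold change with PAE in SKOV3 (horizontal) against that in SKOV3/DDP (vertical) for 138 members, 1 point for each gene, filled where the difference between the lines had an adjusted p under 0.05. SNHG9 lies at -4.84 and 4.36 and MIR100HG at 5.32 and -2.18, and the dashed line marks equal change.

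Of 8 divergent transcripts, which start from the promoter of a protein-coding gene in the other direction, 7 were lower in SKOV3/DDP and none was higher (background 38.5% lower), and 6 fell with PAE in SKOV3 (background 32.7%). Both counts were 6 with the GC and length trend removed. MAN1B1-DT, picked after its values were seen, is an example and stood at 55.3, 6.22, 2.08 and 1.82 CPM as means of SKOV3, SKOV3_PAE, SKOV3/DDP and SKOV3/DDP_PAE. The 27 antisense genes gave 12 higher and 11 lower between the untreated lines, and 13 higher and 8 lower with PAE in SKOV3, shares of 44.4% and 40.7% (background 46.1% and 38.5%) and of 48.1% and 29.6% (background 42.6% and 32.7%), which lie near those of all genes. FGD5-AS1 rose with PAE in SKOV3 from 21.9 ± 3.65 to 222 ± 38.7 CPM (3.34 ± 0.24, adjusted p = 1.7e-08). ARRDC1-AS1 fell from 150 ± 22.2 to 15.8 ± 5.35 CPM (-3.24 ± 0.25, adjusted p = 2.8e-08), and ARRDC1 on the other strand fell by 2.78 (log2). In all, 60 of the 139 were overlapped by another gene of at least 1 CPM, 56 of them by a gene on the opposite strand, and the library kit does not mark strand.

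The members' fold changes were ordered by GC content in the comparisons that used untreated SKOV3. Over the 116 members with a GC value (83.5%), Spearman's rho of the log2 fold change with GC content was -0.49 between the untreated lines and -0.64 with PAE in SKOV3, but 0.06 with PAE in SKOV3/DDP and -0.11 between the treated lines. These are descriptions across genes of the same libraries. Of the 58 members below the median GC content of 48.1%, 32 rose and 13 fell with PAE in SKOV3, and of the 58 above it 5 rose and 39 fell. When the trend with GC content and length was removed, 90 of the 116 were called between the untreated lines (96 before), 75 with PAE in SKOV3 (89 before) and 47 with PAE in SKOV3/DDP (46 before). Of those called both times, 7 between the untreated lines, 10 with PAE in SKOV3 and 0 with PAE in SKOV3/DDP had the opposite sign. Whether the GC trend arose in the cells or in the libraries cannot be told apart here, since all untreated SKOV3 libraries share it.

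**Figure D5:**
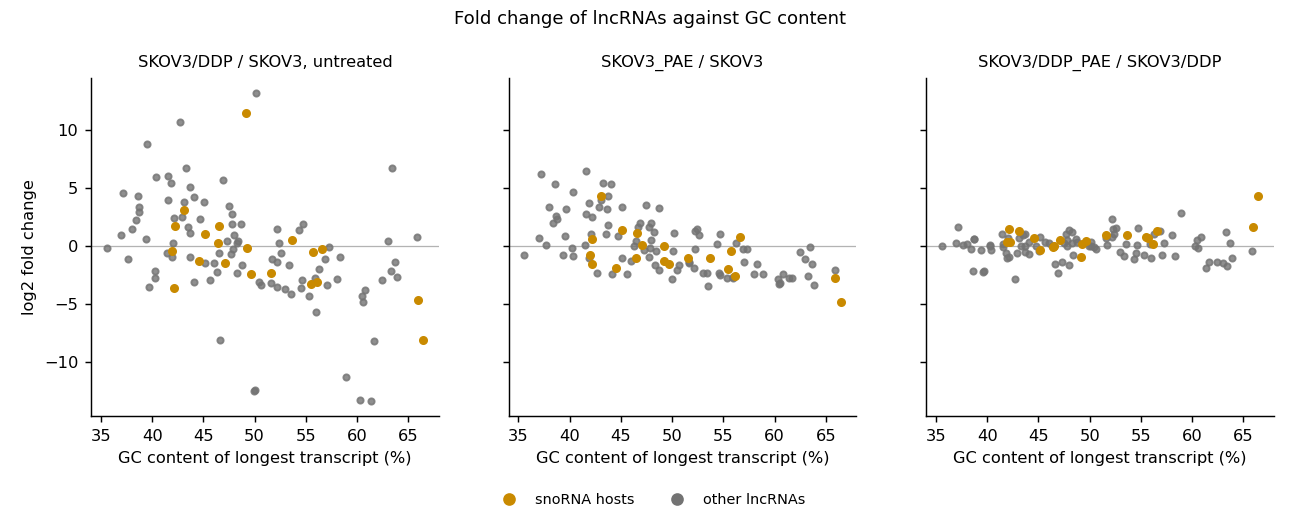
Log2 fold change against the GC content of the longest transcript for 115 members in 3 comparisons, 1 point for each gene, with the snoRNA hosts in a second colour. The points slope downward in the comparisons that used untreated SKOV3 and lie level with PAE in SKOV3/DDP.

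The treated lines were compared with each other in the fit of all 12 libraries, and the 6 treated libraries fitted alone gave 85 calls (46 higher and 39 lower in SKOV3/DDP_PAE). Of the 54 members that the untreated comparison called higher in SKOV3/DDP, 33 were also higher in SKOV3/DDP_PAE than in SKOV3_PAE, 8 were lower and 13 were not called (61.1%, 14.8% and 24.1%, against 40.8%, 13.1% and 46.1% of all genes called higher). Of the 61 lower ones, 30 were lower again, 5 were higher and 26 were not called (49.2%, 8.2% and 42.6%, against 44.0%, 14.8% and 41.2% of all genes called lower). H19 remained higher (log2 fold change 5.14 ± 0.56, adjusted p = 2.1e-06), as did NORAD (1.14 ± 0.25, adjusted p = 0.0015) and GAS5 (1.52 ± 0.38, adjusted p = 0.0036). NEAT1 turned lower (-1.70 ± 0.42, adjusted p = 0.0032), as did MIR100HG (-3.13 ± 0.36, adjusted p = 3.9e-06) and UCA1 (-2.67 ± 0.35, adjusted p = 1.5e-05). SNHG9 turned higher (1.15 ± 0.30, adjusted p = 0.0048). For SNHG7, TUG1 and OIP5-AS1 the treated lines did not differ beyond the test (log2 fold changes -0.23, 0.64 and 0.16).

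The 60 calls with PAE in SKOV3/DDP were the least steady. Leaving out 1 library gave 36 to 62, with 36 without replicate 1 of untreated SKOV3/DDP and 39 without replicate 2 of SKOV3/DDP_PAE, while the share of all genes called fell to 15.7% and 18.8%. SNHG9, SNHG7, MIR100HG, UCA1 and LOC105369370 kept their calls in every fit that left out 1 library. LOC105369370 was a member by its level in untreated SKOV3/DDP, so its fall remains a description.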

How the data were processed

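Poly(A)-selected RNA of SKOV3 and SKOV3/DDP cells, with and without PAE, was sequenced in 12 libraries, 3 in each of 4 groups. The authors deposited raw read counts per gene on GRCh38 with NCBI gene identifiers. The submitters' processing notes name HISAT2 2.0.5, StringTie 1.3.3b, DESeq2 and edgeR with no role. The counting program and its strand setting are not given in the sources used here, and the library kit does not mark strand.

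The 869 loci without a symbol (0.126 to 0.678% of counts) were left out. Fits used edgeR 4.0.16 in R 4.3.3 (quasi-likelihood test, TMM factors, low-count filter) over all named genes, with the 6 untreated libraries for the comparison of untreated lines (15323 genes) and all 12 otherwise (17133 genes). Adjusted p-values are Benjamini-Hochberg over all genes tested, called under 0.05. Standard errors were taken from the size of the log2 fold change over the root of the F statistic. An exact permutation test of 3 against 3 libraries cannot give a two-sided p below 0.1. The 12 libraries held 14572701 to 18240553 counts, and a floor of 3 counts over a group was used for genes at 0. Alternatives were DESeq2 1.42.0, library totals, other filters, removal of a trend with GC content and length, a replicate block and leaving out each library.

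The members, gene lists and tests were chosen with earlier results of these data known. Genes were named if they belonged to the listed roles, were among the 5 largest changes of each sign in a comparison, or were among the 10 with the highest mean CPM. The fits were tested on simulated data, where 76 of 100 genes changed by 1.5 on the log2 scale were recovered with PAE in SKOV3/DDP. Of the calls there, 4.89% were false, against 8.96% between the untreated lines. The simulated libraries held no GC trend, so the test does not bear on that trend. Some items are not reported here.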

Additional observations from a re-analysis of the deposited data

Results flagged for a closer look

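The effect of PAE differed between the lines by edgeR's interaction test (adjusted p under 0.05 over all genes) for 89 of the 139 lncRNAs, where 62.9% of all genes tested also passed. Each value below is the log2 fold change with PAE in SKOV3/DDP minus that in SKOV3, for the named members. With the GC and length trend removed, 32 of 77 such calls among the 116 members with a GC value were lost and 2 turned.

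Among nuclear and regulatory lncRNAs the difference was -5.98 for NEAT1, -5.07 for MALAT1, -4.27 for KCNQ1OT1, -3.25 for TUG1, -2.87 for NORAD and -2.20 for OIP5-AS1. With the trend removed, 2 of the 7 listed nuclear and regulatory lncRNAs were lower, 1 was higher (JPX, 2.03, adjusted p = 0.00022) and 4 were not called. OIP5-AS1 turned to 0.96 but was not called (adjusted p = 0.070), and the median of the 7 went from -3.25 to -0.96. Among the snoRNA hosts it was negative for SNHG1 (-2.995), SNHG16 (-1.72) and SNHG3 (-1.15). It was positive for SNHG9 (9.20), SNHG7 (4.36), SNHG30 (3.02), SNHG11 (2.78), SNHG19 (2.73), EPB41L4A-AS1 (2.58), SNHG17 (2.02), DANCR (1.97), SNHG15 (1.97), SNHG8 (1.48), SNHG6 (1.15) and SNHG29 (0.89). The SNHG9 value includes its fall from untreated SKOV3, which the member rule favoured. With the trend removed, 8 hosts were higher and none lower, and SNHG19 was at -0.27 (adjusted p = 0.51). The miRNA hosts and tumour-linked genes gave -7.50 for MIR100HG, -3.66 for UCA1, -3.50 for LINC-PINT and 1.06 for PVT1.

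Of the remaining named members, the effect in SKOV3/DDP was the lower one for LINC00641 (-6.28), THAP9-AS1 (-5.41), LINC02582 (-5.39), LOC105369370 (-5.20), LOC105377016 (-4.69), LINC01004 (-4.57), LINC02086 (-4.24), FGD5-AS1 (-3.89), FENDRR (-3.21), KLRK1-AS1 (-3.08) and LOC107984316 (-1.65). It was the higher one for HEIH (5.31), DGCR5 (4.23), LOC105373095 (3.82), ARRDC1-AS1 (3.77), GS1-124K5.4 (3.60), LOC107985728 (3.34) and HAR1A (2.31). Several of these rest on 1 line whose counts lie near the floor, so that the size of the difference is uncertain. In SKOV3/DDP, HEIH had 12 counts with PAE against 1 without (ratio 9.93, 95% counting interval 1.47 to 424), FENDRR had 8 counts without PAE against 3 with it (3.22, 0.774 to 18.9), and LOC107985728 and LINC02582 had 20 and 25 counts over 6 libraries. In SKOV3, LOC105377016 had 12 counts with PAE against 2 without (3.74, 0.832 to 34.4), and KLRK1-AS1 had 24 counts over 6 libraries. The interaction call was lost without 1 library for FENDRR (without SKOV3/DDP replicate 2, or SKOV3/DDP_PAE replicate 1 or 2, adjusted p 0.054 to 0.16), KLRK1-AS1 (without SKOV3_PAE replicate 1, 0.12) and LOC107985728 (without SKOV3/DDP_PAE replicate 1 or 3, 0.055 and 0.20).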

How the results depend on the processing

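The rule gave 139 genes at a mean of 10 CPM, 300 at 5 CPM, 66 at 20 CPM, 107 by the median, 146 with TMM-normalised CPM and 45 with the minimum set in each of the 4 groups. With the GC and length trend removed, 59 of 116 differed between the lines in the PAE effect, against 77 of the same 116 before and 89 of all 139. Leaving out 1 library gave 111 to 118 calls between the untreated lines, 100 to 103 with PAE in SKOV3, 36 to 62 with PAE in SKOV3/DDP, 84 to 89 for the difference and 78 to 86 between the treated lines. A replicate block gave 116, 103, 50, 86 and 86 calls in that order, but the replicate numbers did not pair the libraries (correlations of deviations -0.296 to 0.170, over 0.1 in 4 of 18).

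Of 4237 values of named members under alternatives, 3976 kept their direction and side of the threshold, 150 lost a call, 86 gained one and 25 turned. Removal of the GC and length trend turned 23 of these, and the cause was not tested. Between the untreated lines they became -1.03 for OIP5-AS1, 1.20 for SNHG8, 1.81 for SNHG12, -0.057 for SNHG16, 0.36 for SNHG19, 2.23 for ZFAS1 and -0.11 for LINC-PINT. With PAE in SKOV3 they became -1.39 for OIP5-AS1, -2.12 for JPX, 2.01 for H19, 0.26 for SNHG11, 0.65 for SNHG19, 1.99 for ZFAS1, 0.35 for DANCR, 0.96 for MIRLET7BHG, -0.12 for LINC-PINT, 0.77 for PICSAR, 0.23 for LOC375196 and 0.11 for HEIH. The difference between the lines became 0.96 for OIP5-AS1, 2.03 for JPX, -0.27 for SNHG19 and 1.39 for CYTOR. With library totals, PAE in SKOV3 gave 0.10 for SNHG6 and 0.51 for MIR4435-2HG.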
